A study of Mus musculus with 6 samples.

Results

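The NF-κB subunits and their inhibitors were examined in induced regulatory T (iTreg) cells with and without the microRNA miR-31, in 10 genes of the 27376 gene symbols on the array. They were the 5 subunit genes Rel, Rela, Relb, Nfkb1 and Nfkb2, the inhibitor genes Nfkbia, Nfkbib and Nfkbie, the nuclear IκB protein gene Bcl3 and Tnfaip3, which encodes A20. The members were chosen by name, as every non-control probe whose gene name on the array equals one of these symbols, which gave 14 of 41174 probes. Of these, 13 were well above background on all 6 arrays and were tested. The single Rel probe was well above background on 0 arrays and was not tested.

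NF-κB is a family of transcription factors that act as pairs of subunits. In resting T cells most of the pairs are held in the cytoplasm by IκB proteins, and signals from the T-cell receptor and CD28 activate the IκB kinase (IKK), after which the IκB proteins are degraded and the pairs enter the nucleus. Several inhibitors are themselves made under NF-κB control, and c-Rel, the protein of Rel, is known for its part in Foxp3 induction.

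The cells came from 3 miR-31fl/fl CD4Cre (cKO) mice and 3 age-matched control mice. The animals were on a C57BL/6 background, and the cKO mice were 6 weeks old. The study names its controls as miR-31fl/fl mice, which carry the same floxed alleles without Cre, so that deletion of miR-31 and the presence of Cre cannot be told apart. CD4Cre is driven by Cd4 regulatory sequence and is active in T cells from their development in the thymus. From each spleen, naive T cells (CD4+CD25-Foxp3gfp-CD62Lhi) were isolated by sorting and cultured for 4 days on plate-bound anti-CD3 with soluble anti-CD28, TGF-β1 and IL-2. RNA was then labelled with Cy3 and read on 1 one-colour Agilent array per mouse. These arrays address whether transcripts of the NF-κB system differed when miR-31 was deleted. No probe was named for miR-31, so that its loss was not checked here.

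The deleted microRNA is shown because it is what separates the groups. Its main mature strand is given from RefSeq, at chr4:88910614-88910635 of GRCm38.p6 on the minus strand, with the seed (bases 2 to 8) in capitals.
mmu-miR-31-5p: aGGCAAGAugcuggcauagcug

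Because several members are known NF-κB targets, the 250 bases before the start sites of the members were searched on both strands for the NF-κB consensus (the kappaB site, a 10-base motif). RefSeq promoters (GRCm38.p6) were matched by symbol for 8 of the 10 members, with 11 start sites in all. The motif was present before a start site of 5 of these 8 genes, Rel, Nfkb2, Nfkbia, Nfkbie and Tnfaip3. Over all genes in the table it was present in 8.23% of 27025, and over single start sites in 7.25% of 32851. Matches may overlap one another, as they did at Rel and Nfkb2, and a match is a description of letters, not of binding. The 250 bases before the first listed start site are shown for the inhibitor genes whose values are described most fully, with matches in capitals. The match in Nfkbia began 29 bases before the start site, and those in Tnfaip3 began 125 and 12 bases before it.
Nfkbia, chr12:55492648-55492897, minus strand: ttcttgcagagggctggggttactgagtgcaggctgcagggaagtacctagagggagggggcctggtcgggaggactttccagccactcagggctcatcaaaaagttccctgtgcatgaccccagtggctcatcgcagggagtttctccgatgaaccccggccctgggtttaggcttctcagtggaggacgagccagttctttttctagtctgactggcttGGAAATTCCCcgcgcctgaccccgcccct
Tnfaip3, chr10:19015411-19015660, minus strand: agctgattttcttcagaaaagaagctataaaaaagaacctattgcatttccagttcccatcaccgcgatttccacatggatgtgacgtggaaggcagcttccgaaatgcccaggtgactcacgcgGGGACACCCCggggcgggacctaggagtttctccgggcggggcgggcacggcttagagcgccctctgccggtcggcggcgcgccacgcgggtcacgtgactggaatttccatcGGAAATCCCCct
Bcl3, chr7:19822756-19823005, minus strand: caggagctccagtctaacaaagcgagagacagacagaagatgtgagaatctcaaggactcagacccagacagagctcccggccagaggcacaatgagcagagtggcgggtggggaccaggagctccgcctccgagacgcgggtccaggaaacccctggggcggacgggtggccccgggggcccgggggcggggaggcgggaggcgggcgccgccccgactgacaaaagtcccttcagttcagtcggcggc
Nfkbib, chr7:28766645-28766894, minus strand: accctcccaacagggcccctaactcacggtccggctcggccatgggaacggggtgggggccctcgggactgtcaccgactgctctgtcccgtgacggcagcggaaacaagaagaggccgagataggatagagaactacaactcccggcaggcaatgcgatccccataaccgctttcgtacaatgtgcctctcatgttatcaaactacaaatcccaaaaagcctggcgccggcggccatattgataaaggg
No match was in the windows of Bcl3 and Nfkbib.

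All levels are the log2 processed signal of a probe minus the 75th percentile of its own array, so that a value of 0 is a signal equal to that percentile. Levels of different probes were not compared, since probes differ in how they hybridize. In RNA from a whole culture, fewer cells of a type and less RNA per cell cannot be told apart. The 3 cKO arrays and control array 1 were on one slide, and control arrays 2 and 3 were on another. Differences are therefore also given with the slide as a block, a fit in which the difference equals the cKO mean minus control array 1. Between 49.3% and 57.7% of spots were well above background, 0 were saturated, and the 75th percentile lay between 939 and 1095 over the arrays.

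No member differed between cKO and control at an adjusted p under 0.05 (limma with Benjamini-Hochberg adjustment over all 22281 tested probes). The 13 member probes gave 0 calls, where 29 of all tested probes (0.13%) were called. At an unadjusted p under 0.05, 4 of the 13 member probes were higher in cKO, against 11.7% of all tested probes, and 0 were lower, against 11.3%. The 4 were the probes of Bcl3 and Nfkbib and 2 of the 4 Nfkb1 probes. The groups did not overlap at 5 of the 13 member probes, against 36.6% of all tested probes, with 3 higher in cKO (background 16.2%) and 2 lower (background 20.4%). The log2 fold change was above 0 at 10 of the 13 member probes, against 45.6% of all tested probes, with a median of 0.24 against -0.04. Not all of these 10 kept their sign. With normexp and 75th-percentile scaling, Nfkbia (-0.076), Nfkbie (-0.095), Relb (-0.13) and Rela's brighter probe (-0.26) were below 0. The median over all tested probes was then 0.10. Under the slide block, Relb (-0.037) and Rela's brighter probe (-0.025) were below 0. With the slide as a block, 0 of the 13 had an unadjusted p under 0.05, in either direction, and all 4 that had passed kept their sign. Over all tested probes the block lowered the share at that threshold from 23% to 7.36%, with 4.67% higher in cKO.

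**Figure D1:**
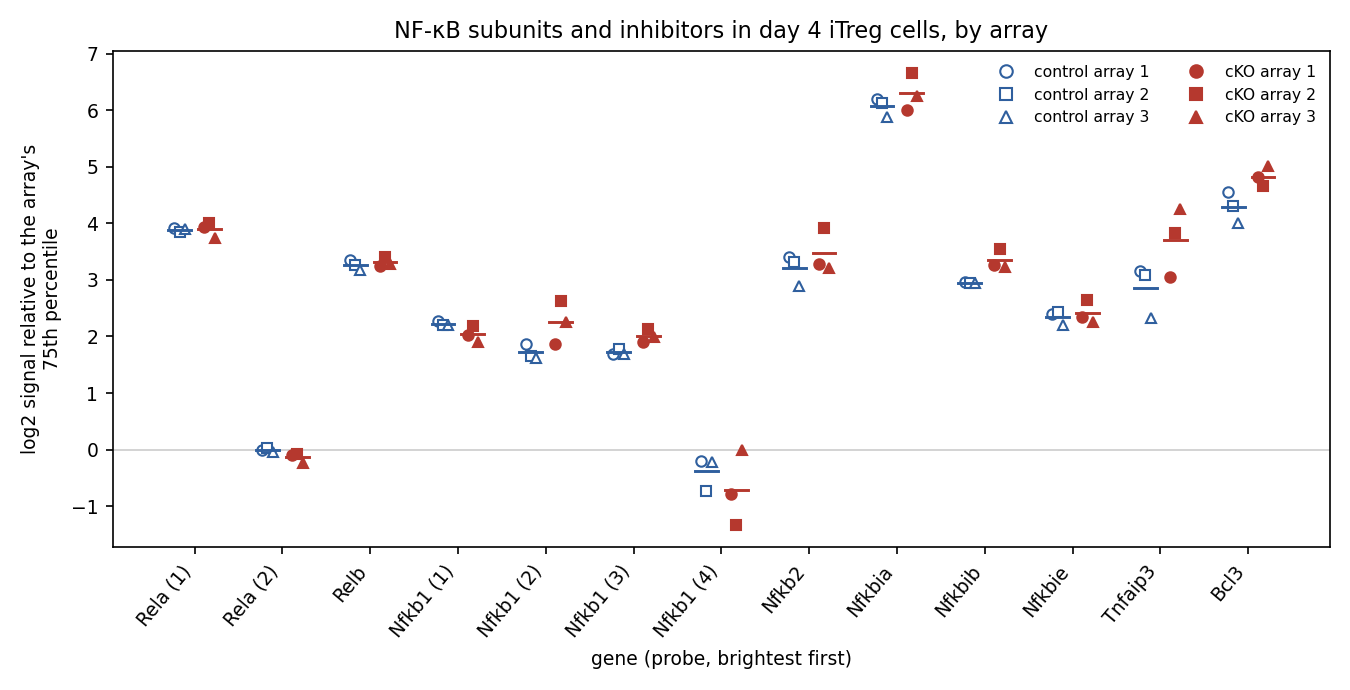
Log2 signal minus the 75th percentile of the same array (vertical axis) for the 13 tested member probes (horizontal axis, probes of a gene numbered brightest first), with 1 point per array and a bar at each group's mean. The cKO points of Bcl3, Nfkbib and Nfkb1 probe 3 sit above all control points. Those of the second Rela probe and the brightest Nfkb1 probe sit below all control points, while the other probes overlap.

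Rela encodes p65, the subunit with a strong activation domain that is paired with p50 in the classical pathway. Its brighter probe lies at chr19:5647632-5647691 (mm9, plus strand) and read 3.94, 4.01 and 3.75 on cKO arrays 1 to 3 and 3.92, 3.85 and 3.89 on control arrays 1 to 3. The control values lay inside the cKO range, and the log2 fold change was 0.01 ± 0.11 (SE, n = 3 per group; limma adjusted p = 0.963). The 95% interval of the difference ran from -0.26 to 0.28, which is a fold of 0.837 to 1.21. The sign was not stable, and the value was -0.025 with the slide as a block and -0.26 after normexp background correction with 75th-percentile scaling.

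A second Rela probe, printed in 10 spots at chr19:5647136-5647195, read -0.09, -0.07 and -0.24 in cKO and -0.01, 0.03 and -0.05 in controls. All cKO values were below all control values, by a margin smaller than the spread among the cKO arrays. Its log2 fold change was -0.12 ± 0.10 (SE; limma adjusted p = 0.467). Within an array, the log2 signals of its spots had an SD between 0.0213 and 0.083.

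Relb, the activating subunit of the alternative pathway, read 3.25, 3.41 and 3.28 in cKO and 3.35, 3.26 and 3.17 in controls at chr7:20191722-20191781. The groups overlapped throughout, with a log2 fold change of 0.05 ± 0.10 (SE; limma adjusted p = 0.775). The 95% interval ran from -0.20 to 0.30, and the value was -0.037 with the slide as a block and -0.13 after normexp with 75th-percentile scaling.

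Nfkb1 encodes p105, the precursor of p50, and its 4 probes did not move together. The brightest, printed in 10 spots and designed on an mRNA record, lies at chr3:135247710-135247771 (mm9, minus strand) and read 2.03, 2.18 and 1.90 in cKO and 2.27, 2.21 and 2.21 in controls. Every cKO value was below every control value, and the log2 fold change was -0.19 ± 0.11 (SE; limma adjusted p = 0.325). The SD of its spots within an array was 0.131 to 0.17.

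The second Nfkb1 probe was designed on an Ensembl transcript and lies at chr3:135275144-135275203. It read 1.86, 2.63 and 2.25 in cKO and 1.87, 1.66 and 1.63 in controls. cKO array 1 was at the level of control array 1, so the groups overlapped. The log2 fold change was 0.53 ± 0.21 (SE; limma unadjusted p = 0.0429, adjusted p = 0.208), and 0.34 without cKO array 2.

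Nfkb1's next probe, designed on a cDNA record, lies at chr3:135274175-135274234 and read 1.90, 2.13 and 1.98 in cKO and 1.69, 1.78 and 1.70 in controls. Here the cKO values all lay above the controls, with a log2 fold change of 0.29 ± 0.11 (SE; limma unadjusted p = 0.0347, adjusted p = 0.197). The block left its size at 0.32 (unadjusted p = 0.125 in limma).

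The fourth Nfkb1 probe, on another cDNA record at chr3:135281195-135281254, read -0.78, -1.33 and -0.02 in cKO and -0.20, -0.73 and -0.22 in controls. The cKO arrays spanned 1.31, the widest range within the cKO group among the member probes, and the log2 fold change was -0.33 ± 0.35 (SE; limma adjusted p = 0.572). It ran from -0.019 without cKO array 2 to -0.68 without cKO array 3 (limma unadjusted p = 0.0467). The brightest Nfkb1 probe and probes 2 and 3 therefore differed in sign, and no single direction is given for Nfkb1. Averaged over its 4 probes, the gene had a log2 fold change of 0.074. The array's annotation pairs the probes with transcript records and does not say which exon each lies in.

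Nfkb2 encodes p100, the precursor of p52 and an inhibitor of Relb pairs until it is processed. It read 3.28, 3.92 and 3.21 in cKO and 3.41, 3.31 and 2.90 in controls (chr19:46386146-46386285, the annotated span of the probe). The highest value was cKO array 2 and the lowest control array 3, and among the other 4 arrays both cKO values were below both controls. Its log2 fold change was 0.27 ± 0.24 (SE; limma adjusted p = 0.502). It was 0.041 without cKO array 2 and 0.065 with the slide as a block.

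Rel could not be compared. Its only probe was not well above background on any array, and the array's annotation places 15 bases of the probe on mm9, at chr11:23641729-23641743. No level or fold is given for it, and a reading below background at 1 probe does not show that the transcript was absent.

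Nfkbia encodes IκBα, the classical inhibitor that NF-κB itself induces, and carries a motif match in the window shown above. It read 6.01, 6.65 and 6.25 in cKO and 6.20, 6.13 and 5.87 in controls (chr12:56590945-56591440, annotated span, minus strand). The cKO range enclosed 2 of the 3 controls. The log2 fold change was 0.24 ± 0.19 (SE; limma adjusted p = 0.46), a fold of 1.18 with a 95% interval from 0.854 to 1.63. Without cKO array 2 it was 0.064, with the slide as a block it was 0.11, and after normexp background correction with 75th-percentile scaling it was -0.076.

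Nfkbib encodes IκBβ, which binds Rela and Rel pairs and is restored more slowly than IκBα after stimulation. It read 3.27, 3.55 and 3.23 in cKO and 2.96, 2.95 and 2.94 in controls (chr7:29544167-29544848, annotated span, minus strand). The 3 controls lay within 0.0257 of each other, and the lowest cKO array was above all of them. The fold was 1.32, with a 95% interval from 1.08 to 1.61 (log2 0.40 ± 0.12 SE; limma unadjusted p = 0.0141, adjusted p = 0.157). A 2-sided exact permutation test gave p = 0.10, the smallest that 3 arrays against 3 allow. The difference was 0.39 with the slide as a block (limma unadjusted p = 0.0992, adjusted p = 0.727). This was the least changed in size of the 4 probes that had passed the unadjusted threshold.

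Nfkbie encodes IκBε, an inhibitor that is also inducible. It read 2.34, 2.65 and 2.26 in cKO and 2.40, 2.44 and 2.21 in controls (chr17:45700000-45700059). Apart from cKO array 2 the arrays of both groups interleaved. This gave a log2 fold change of 0.07 ± 0.14 (SE; limma adjusted p = 0.787), with a 95% interval from -0.28 to 0.41. It turned to -0.049 without cKO array 2 and to -0.095 after normexp with 75th-percentile scaling.

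Bcl3 encodes a nuclear member of the IκB family that binds p50 and p52 dimers and can enable transcription from them. It read 4.81, 4.66 and 5.01 in cKO and 4.56, 4.30 and 4.00 in controls (chr7:20393862-20393921, minus strand). The lowest cKO array, array 2, was above the highest control, array 1. The fold was 1.46, with a 95% interval from 1.08 to 1.96 (log2 0.54 ± 0.18 SE; limma unadjusted p = 0.0209, adjusted p = 0.172), and the exact permutation test gave p = 0.10. On the shared slide the difference from control array 1 was 0.27, with a limma unadjusted p = 0.273 and adjusted p = 0.736 for the block. The limma adjusted p had a range of 0.129 to 0.736 over the alternatives tried.

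Tnfaip3 encodes A20, a ubiquitin-editing enzyme that restrains signalling to IKK, and had the largest difference of the member probes. It read 3.05, 3.82 and 4.25 in cKO and 3.15, 3.08 and 2.33 in controls (chr10:18720994-18721053, minus strand). Arrays 2 and 3 of cKO were above every control, while cKO array 1 was below control arrays 1 and 2. The fold was 1.81, with a 95% interval from 0.982 to 3.34 (log2 0.86 ± 0.36 SE; limma unadjusted p = 0.0554, adjusted p = 0.225). It ranged from 0.59 to 1.19 on the log2 scale when single arrays were left out, the lowest without cKO array 3 and the highest without cKO array 1, and was 0.56 with the slide as a block.

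**Figure D2:**
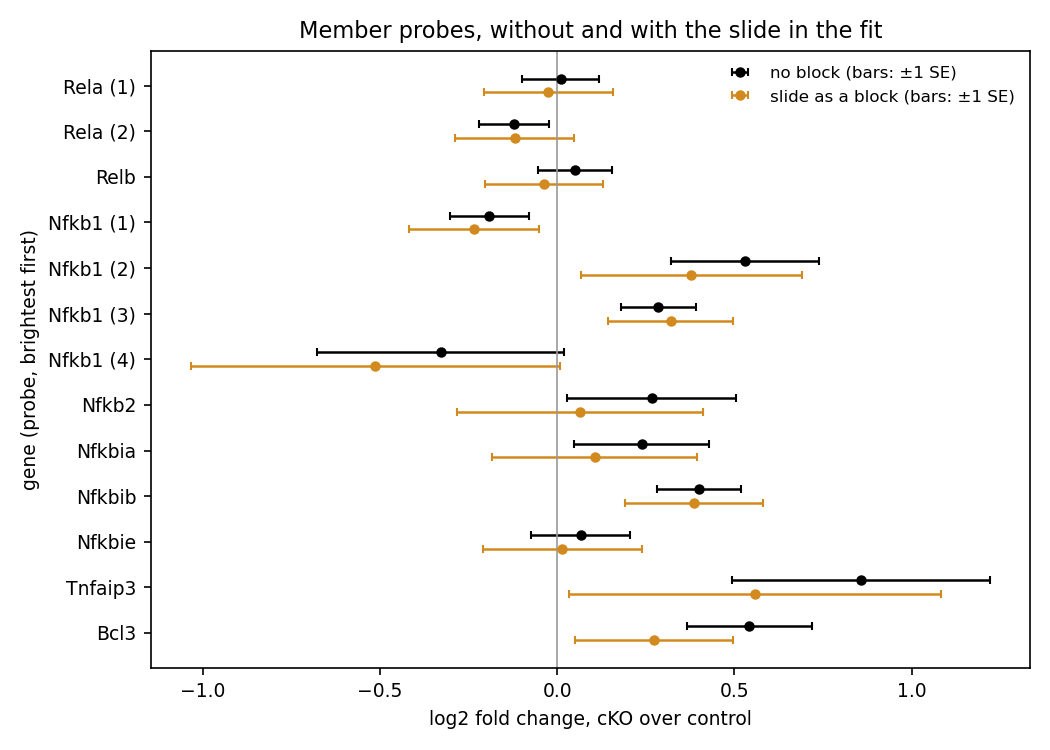
Log2 fold change, cKO over control (horizontal axis), of each tested member probe (vertical axis) without a block and with the slide as a block, with bars of 1 SE either side. With the block the Bcl3 value went from 0.54 to 0.27 and that of Tnfaip3 from 0.86 to 0.56, while Nfkbib stayed at 0.39 against 0.40.

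Most member probes, though not all, were highest on the same cKO array. cKO array 2 was the highest of the 6 arrays at 8 of the 13 member probes, against 14.2% of all tested probes that had a value on every array. These 8 were Rela (brighter probe), Relb, Nfkb1 probes 2 and 3, Nfkb2, Nfkbia, Nfkbib and Nfkbie. Array 3 of cKO was highest at 3 (Tnfaip3, Bcl3 and the fourth Nfkb1 probe), against 28.8% of all tested probes. At Bcl3 and the fourth Nfkb1 probe, cKO array 2 was the lowest of the cKO arrays. Control arrays 1 and 2 were highest at 1 member probe each, against 8.83% and 12.2% of all tested probes. The span of the 3 cKO arrays was wider than that of the 3 controls at 11 of the 13 member probes, where it was wider at 73.3% of all tested probes. Members measured on 1 array share its RNA and its scaling, so their joint position on cKO array 2 is not 8 separate observations.

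**Figure D3:**
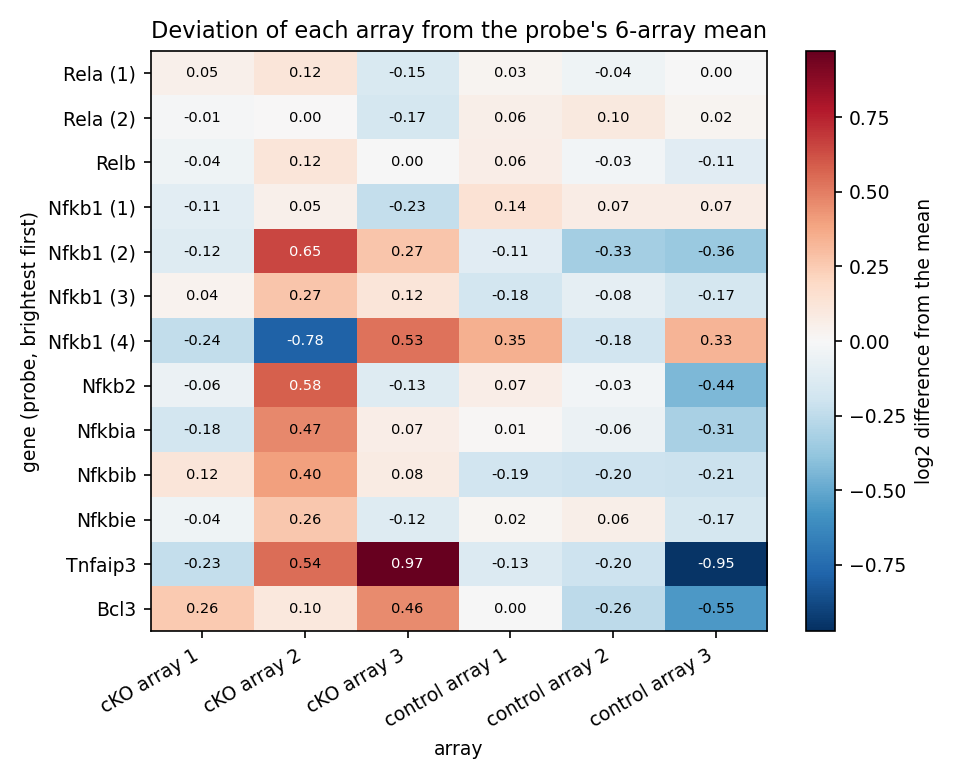
Difference of each array (columns) from the mean of the 6 arrays for each tested member probe (rows), in log2 units, with the value printed in each cell. On cKO array 2, Nfkb2 lay 0.58 and Nfkbia 0.47 above their means, while Tnfaip3 lay 0.97 above its mean on cKO array 3 and 0.95 below it on control array 3 (-0.95).

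Without cKO array 2, the member probes higher in cKO at an unadjusted p under 0.05 numbered 2 in place of 4. They also numbered 2 without cKO array 3 or control array 1, and 1 without control array 2 or control array 3. Without cKO array 1 they numbered 5. The share of all tested probes that were higher moved too, to 10% without cKO array 2, 10.2% without cKO array 3, 8.44%, 8.29% and 7.66% without control arrays 1, 2 and 3, and 14.2% without cKO array 1, against 11.7% with all arrays. None of these fits gave a member an adjusted p under 0.05, with the smallest at 0.0918 (Nfkb1 probe 2, without cKO array 1), which ranged up to 0.737 over all alternatives for that probe.

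The genes whose pattern was most like that of Nfkbia over the 6 arrays were Unc13a (Pearson r = 0.995), Nt5c3 (r = 0.993) and Mdk (r = 0.99), out of 14349 genes at their brightest probe. These correlations are a description over 6 points that share arrays and scaling, and 4 genes were above an r of 0.99. Unc13a read 0.16, 1.16 and 0.45 in cKO and 0.39, 0.23 and -0.19 in controls, with its highest value on cKO array 2 like Nfkbia.

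Upstream of the subunits, the genes that carry the T-cell receptor and TNF receptor signal to IKK were measured by 17 genes. None of the 17 had an adjusted p under 0.05. At an unadjusted p under 0.05, 0 were higher and 1 was lower (background 11.7% and 11.3%), and the median log2 fold change was -0.05, near the -0.04 of all tested probes. The lower one was Traf6, a ubiquitin ligase of the pathway, which read 1.63, 1.50 and 0.98 in cKO and 1.73, 1.90 and 2.28 in controls. The groups did not overlap, and the log2 fold change was -0.60 ± 0.22 (SE; limma unadjusted p = 0.0356, adjusted p = 0.199), or -0.36 with the slide as a block.

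Of 15 other IκB proteins and negative regulators, 0 had an adjusted p under 0.05, and 2 were higher and 2 lower at the unadjusted threshold (background 11.7% and 11.3%), with a median of -0.03. Otud7b, a deubiquitinase, read -0.25, -0.27 and -0.44 in cKO and -0.78, -0.65 and -0.81 in controls at its brightest probe, with a log2 fold change of 0.43 (limma adjusted p = 0.131) and 0.46 with the slide as a block. Its 5 tested probes ranged from -0.94 to 0.43 and did not share a sign. Cyld, another deubiquitinase that restrains the pathway, was higher by 0.38 (limma adjusted p = 0.217), with its 3 probes from 0.0015 to 0.38. That value was 0.22 without cKO array 3 and 0.34 with the slide as a block.

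Zc3h12a, an endoribonuclease that degrades inflammatory transcripts, read -2.53, -2.47 and -2.46 in cKO and -2.09, -2.03 and -1.81 in controls. All cKO values were below the controls, and the log2 fold change was -0.51 ± 0.11 (SE; limma adjusted p = 0.117) and -0.40 with the slide as a block, although it was 0.082 after normexp background correction with 75th-percentile scaling. Nkrf, a repressor at NF-κB-regulated promoters, had a log2 fold change of -0.73 at its brightest probe and -0.60 at the other (limma adjusted p = 0.202 at the brightest). The former was -0.43 without cKO array 3, -0.31 after normexp with 75th-percentile scaling and -0.61 with the slide as a block.

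Downstream, 24 of 26 listed target genes were measured, since Bcl2a1a and Bcl2a1d had no probe of that name. None of the 24 had an adjusted p under 0.05. At the unadjusted threshold 4 were higher and 0 lower (background 11.7% and 11.3%), with 11 of the 24 above 0 and a median of -0.02. Ier3, an early response gene, read 0.60, 1.07 and 0.93 in cKO and -0.32, -0.05 and -0.43 in controls. Every cKO array was above every control, and the log2 fold change was 1.14 ± 0.17 (SE; limma unadjusted p = 0.000475, adjusted p = 0.069), or 1.19 with the slide as a block (limma adjusted p = 0.413, from 0.0434 to 0.461 over the alternatives).

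Traf1, an adaptor of TNF receptors, read 4.97, 5.19 and 5.32 in cKO and 4.66, 4.61 and 4.35 in controls, with a log2 fold change of 0.62 ± 0.14 (SE; limma adjusted p = 0.122) and 0.50 with the slide as a block. Ccl5, a T-cell chemokine, was higher by 1.01 (limma adjusted p = 0.173), but by 0.67 without control array 3 and 0.56 with the slide as a block. Ifng, the TH1 cytokine, read 5.47, 5.22 and 5.69 in cKO and 5.11, 4.28 and 2.73 in controls, with a log2 fold change of 1.42. Without control array 3 it was 0.76, and with the slide as a block 0.35 (limma adjusted p = 0.852, from 0.179 to 0.852 over the alternatives).

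**Figure D4:**
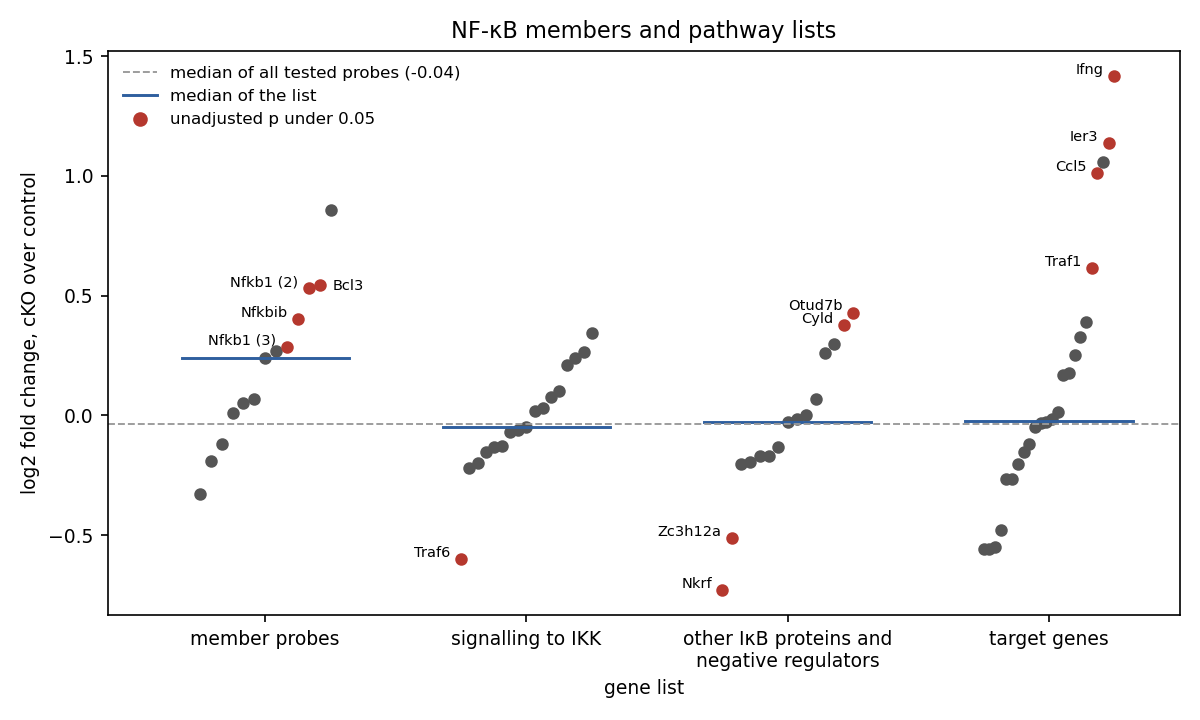
Log2 fold change, cKO over control (vertical axis), of the 13 member probes and of the brightest tested probe of each gene in 3 pathway lists (horizontal axis), with red points for an unadjusted p under 0.05 and bars for medians. In this fit without a block, the member median of 0.24 sits above the dashed median of all tested probes at -0.04. The medians of the 3 lists lie between -0.05 and -0.02.

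Markers of the cultured cells were read on the same arrays. All 6 T-cell markers and all 6 Treg markers were well above background on at least 3 arrays. The summed T-cell level, in multiples of the 75th percentile, was 179 to 226 in cKO and 159 to 169 in controls, and that of the Treg list was 189 to 214 and 145 to 194. These sums add linear signals, so that the brightest probe weighs most, here Cd3d for T cells and Tnfrsf18 for Treg. The markers did not all move one way. At the brightest probe and an unadjusted p under 0.05 in limma, 4 of the 6 T-cell markers were higher in cKO and 1 was lower. Of the 6 Treg markers, 1 was higher and 1 lower. Over all tested probes, 11.7% were higher and 11.3% lower at that threshold. In either list 0 markers had an adjusted p under 0.05. Cd4 had a log2 fold change of 0.67 (0.65 with the slide as a block) and Foxp3 one of -0.61 (-0.50 with the block, -0.38 without cKO array 3). By flow cytometry, the study reported more iTreg cells in cultures from cKO mice, as a per cent of cells, which arrays do not measure. Foxp3 RNA in these whole cultures went the other way (limma unadjusted p = 0.0317, adjusted p = 0.191). Its groups did not overlap, as at the 20.4% of all tested probes that were lower in this way. The Foxp3 value was below 0 in all 20 alternatives fixed earlier. The reason for the unlike directions was not tested. The higher Treg marker, named after its values were seen, was Ctla4 at 0.94. The 2 probes of Cd3e had -0.27 and 0.78, with -0.26 for the former under the block. CD8 T-cell markers summed to 4.06 to 4.57 in cKO and 4.62 to 5.82 in controls. At the brightest probes of Cd8a and Cd8b1, taken singly, the groups overlapped.

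Markers of other cell types were often not above background. B-cell markers were well above background on at least 3 arrays for 2 of 6 (sums 0.617 to 1.50 in cKO, 0.467 to 0.741 in controls) and myeloid markers for 1 of 9 (0.198 to 0.219 and 0.184 to 0.404). NK markers were so for 0 of 2, so that neither was tested. Their sums were 0.0636 to 0.0649 in cKO and 0.0215 to 0.0342 in controls. Ncr1, well above background on 2 arrays, read -4.21, -4.34 and -4.15 in cKO and -5.82, -5.78 and -6.53 in controls. Of the 2 erythroid markers 1 passed (Hbb-b1, higher on all cKO arrays), while Hba-a1, well above background on 2 arrays, read lower on every cKO array than on every control. The erythroid sums were 0.471 to 1.04 in cKO and 0.157 to 0.325 in controls. Epithelial markers passed for 3 of 4, with Krt8 on 0 arrays, and summed to 1.37 to 2.05 in cKO and 0.842 to 0.934 in controls. The T-cell, epithelial, erythroid and NK sums were thus higher on all cKO arrays than on all controls, and the CD8 sum was lower. Among single tested probes, the groups did not overlap at 36.6%, with 16.2% higher in cKO and 20.4% lower. Bcl3, Nfkbib and Nfkb1 probe 3 were higher on all cKO arrays too, while the second Rela probe and the brightest Nfkb1 probe were lower. The part of these sums in the member values was not tested.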

How the data were processed

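RNA from 6 cultures, 1 per mouse, was hybridized by the authors to 6 one-colour arrays. The deposited scanner files hold linear spot intensity, background-subtracted and detrended within the array by Agilent Feature Extraction (10.7.3.1 in the file headers, 9.1 in the submitters' processing notes). The authors also deposited a table of log2 values with nearly equal distributions, used as an alternative, whose normalization is not given in the sources used here. All 6 of its columns were assigned and 0 were left out.

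Spots flagged as outliers were dropped (123 to 140 per array), the spots of a probe were averaged, and each array's 75th percentile over probes was subtracted from the log2 signal. A probe was kept if 3 or more of the 6 arrays had it well above background (22281 of 41174). Groups, taken from the sample titles, were compared in limma 3.58.1 (lmFit, eBayes; R 4.3.3) with Benjamini-Hochberg adjustment and a threshold of 0.05. The steps were tested on simulated data. Each group was 3 individual mice, and this number limits the precision. Sequences were read with Python 3.11.15 and pandas 2.3.3, and plots drawn with matplotlib 3.10.9.

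The members and lists were chosen with earlier results of these data known. Every member probe is given. In each pathway list, genes with an unadjusted p under 0.05 at the brightest tested probe are named, at most 4 per list by the smallest p, with Cd3e, Cd4 and Foxp3 as markers and the 3 genes most like Nfkbia. Alternatives were normexp (offset 50) with 75th-percentile or quantile scaling, quantile and median scaling, the authors' table, other filters, the methods' 2-sided t-test, trend and robust fitting, array weights, slide and replicate blocks, probe summaries and each array left out. Of the 14 member probes, 10 matched a RefSeq record by accession, all with the same symbol, and the Nfkb1 probes keep the array's name. Positions are those of the array's mm9 annotation, and promoters are on GRCm38.p6. No genome of either build was used here.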

Additional observations from a re-analysis of the deposited data

How the results depend on the processing

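No member passed an adjusted p of 0.05 under any of the 20 alternatives fixed earlier or the 1 added after the data were seen. The smallest was a limma adjusted p of 0.0544, for Nfkbib with array weights, and that probe ranged up to 0.727. Bcl3, Nfkbib, Nfkb2 and Tnfaip3 kept their sign in the 20, and so did the second Rela probe and the other 3 Nfkb1 probes in the 18 that gave them a value of their own, which left out the fits with 1 probe per gene and the mean over probes. The direction turned for Nfkb1's brightest probe when its probes were averaged (0.074). With normexp and 75th-percentile scaling, which moved the median over all tested probes from -0.04 to 0.10, it turned for Nfkbia (-0.076), Nfkbie (-0.095), Relb (-0.13), Rela's brighter probe (-0.26) and Zc3h12a (0.082). The slide as a block turned Relb (-0.037) and Rela (-0.025), and the mean over probes turned Rela (-0.056) and Cd3e (0.25). The cause was not tested. When single arrays were left out, Nfkbie ranged from -0.049 to 0.14 and Rela's brighter probe from -0.046 to 0.087.

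Member probes higher in cKO at an unadjusted p under 0.05 numbered 0 with normexp and 75th-percentile scaling and with the slide as a block, 1 with the replicate block, and 2 with no filter, with 1 probe per gene and with the mean over probes (9 genes each, so fewer features), against 4. Over all tested features, the share higher in cKO was 4.99% with normexp and 75th-percentile scaling and 4.67% with the slide as a block. It was 9.03% with the replicate block, 5.88% with no filter, 12.2% with 1 probe per gene and 11.9% with the mean over probes, against 11.7%. The higher member probes ranged from 1 to 5 when single arrays were left out, and the lower ones from 0 to 1 (Nfkb1 probe 4, without cKO array 3). In the fit without cKO array 3, 21.2% of all tested probes passed in either direction, with 10.2% higher. The methods' t-test gave 3 of 13 at its threshold, all higher in cKO, against 9.44% of all tested probes. It gave 0 after Benjamini-Hochberg adjustment.

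Over all tested probes, 29 passed the adjusted threshold. The number was 0 with normexp and 75th-percentile scaling, no filter, the methods' t-test, the slide as a block and the replicate block, and 115 with normexp and quantile, 79 with the median, 98 with trend and robust fitting, 175 with a filter requiring all 6 arrays above background, 656 with array weights and 54 with the percentile taken over spots (the added alternative). The array weights were lowest for cKO array 3 (0.18) and highest for control array 2 (3.84). The number of probes past the adjusted threshold ranged from 0 to 1 when single arrays were left out. Of the target genes, 1 (Ier3) passed with normexp and quantile normalization (0.96), under that stricter filter (1.14) and with weighted arrays (1.10).

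The replicate numbers shared by the groups did not pair the arrays: same-numbered deviations correlated at -0.144, 0.0075 and -0.186, so the replicate block is given here as a check alone. The design of 3 against 3, with 1 control array on the slide of the cKO arrays, limits the blocked fits.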
